A study of Sus scrofa with 32 samples.

Results

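The plasminogen activators and serpins are described here across 4 compartments of the pig endometrium. The members were taken by gene symbol and are PLAU, PLAT, PLAUR, SERPINE2, SERPINB2, SERPINB7, SERPINF1, SERPING1 and SERPINH1, which makes 9 of the 30185 genes counted. All 9 were found in the count tables and in the NCBI annotation. Laser capture microdissection, in which a laser separates chosen areas of a frozen section, had been used to collect the luminal epithelium (LE), the glandular epithelium (GE), the blood vessels (BV) and the stromal cells (S). The endometrium came from 4 pregnant and 4 nonpregnant gilts (cyclic, the controls in the labels) on Day 14. Each library holds 1 compartment of 1 gilt and is named here as in the labels, by C (cyclic) or P (pregnant), the letter L, G, B or S of its compartment and the number of its gilt. All 8 gilts were prepuberal animals whose ovulation had been induced with the gonadotropins eCG and hCG, the pregnant ones inseminated with semen and the cyclic ones with semen supernatant of the same boar. The pregnant samples were taken from the hyperemic zones where embryos attach, after the conceptus had been removed, so pregnancy and site of sampling cannot be told apart. The library PG41 was not analysed here, which leaves 3 libraries in pregnant GE and 4 in every other group.

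Plasminogen activators turn plasminogen into plasmin, a protease that dissolves fibrin and parts of the extracellular matrix. Urokinase (PLAU) acts mostly at the cell surface, bound to its receptor (PLAUR), and tissue-type activator (PLAT) mostly on fibrin. Serpins are a family of proteins of which many trap serine proteases in a covalent complex, while a few have lost this activity and serve as chaperones or signals. Pig conceptuses are known to produce plasminogen activator while they elongate and attach without invading the uterine wall, and the pig uterus secretes protease inhibitors.

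Library totals lay between 2415216 and 7081556 counts. Levels are given as CPM (counts per 1000000), which are counts divided by the library total after TMM scaling of all 31 libraries. The 6 epithelium markers fitted the labelled compartments. Their sums were 2169 to 3165 CPM in LE and 1363 to 1726 CPM in GE. In BV they were 2.56 to 271 CPM and in S 10.2 to 423 CPM. The smooth muscle markers were higher in BV than in S without overlap in each status. The fibroblast markers overlapped, at 25082 to 91087 CPM in cyclic BV and 36616 to 106304 CPM in cyclic S. The endothelium markers overlapped too, at 1633 to 2866 CPM in pregnant BV and 884 to 2634 CPM in pregnant S. Some markers of other cells moved with pregnancy. The epithelium markers summed to 2.56 to 45.3 CPM in cyclic BV, with CLDN4 at 0 in CB128 and CB42 and KRT18 and KRT19 at 0 in CB42, and to 149 to 271 CPM in pregnant BV, with no marker at 0. The 5 summed smooth muscle markers lay at 5009 to 16104 CPM in cyclic and 721 to 6067 CPM in pregnant BV, and at 322 to 868 CPM in cyclic and 182 to 285 CPM in pregnant S. In LE, where both kinds were lower in pregnant gilts without overlap, the epithelium markers summed to 2586 to 3165 CPM in cyclic and 2169 to 2436 CPM in pregnant gilts, with KRT8 called at a log2 fold change of -1.60 (SE 0.28), and the smooth muscle markers to 154 to 381 and 93.2 to 115 CPM. The part of these shifts in the levels of the members in LE was not tested.

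SERPINB7 and SERPING1 were the members called between pregnant and cyclic gilts. A gene was called in LE at a false discovery rate of 1% in the quasi-likelihood test of edgeR, and in the other compartments when its p before adjustment was at most 0.000328, the highest among the genes called in LE. The robust GLM of edgeR and DESeq2, used as alternatives, followed the same rule with limits from their own calls in LE, 0.00114 and 0.00112. In LE 2 of the 6 members in the filtered table were called, beside 3.32% of all genes there, and both were higher in pregnant gilts, beside 2.02% of all genes. In GE 1 of 3 members was called, beside 0.748% of all genes, and it was higher in pregnant gilts, beside 0.512%. None of 6 members was called in BV, where 1.86% of all genes were, and none of 8 in S, where 0.293% were. At a false discovery rate of 1% within GE, BV or S this test called 0 genes. Every call by it in these compartments, of members or other genes, thus rests on the raw p limit. The members were chosen with earlier results of these data known, so these counts cannot be read as an enrichment. At an unadjusted p under 0.05, BV held 2 members (SERPINF1 and SERPINH1) and S held 4 (PLAU, SERPINB7, SERPING1 and SERPINH1), beside 28.5% of all genes in BV and 14.5% in S. The median log2 fold change of the members was 0.10 for LE, 0.09 for GE, 0.04 for BV and -0.16 for S, where all genes had medians between -0.01 and 0.00. Because these are bulk captures, fewer cells of a type and less RNA per cell cannot be told apart.

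The 250 bases before the annotated starts of the 2 called members are shown because their levels moved with pregnancy, read from the RefSeq genome of Sscrofa11.1 on the minus strand at chr1:157999243-157999492 for SERPINB7 and at chr2:13338827-13339076 for SERPING1. Capitals mark matches to searched motifs.
SERPINB7: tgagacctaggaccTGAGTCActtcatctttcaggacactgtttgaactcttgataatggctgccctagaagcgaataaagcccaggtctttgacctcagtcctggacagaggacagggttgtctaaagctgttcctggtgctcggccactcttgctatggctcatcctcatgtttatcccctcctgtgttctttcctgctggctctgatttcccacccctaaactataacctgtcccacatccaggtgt
SERPING1: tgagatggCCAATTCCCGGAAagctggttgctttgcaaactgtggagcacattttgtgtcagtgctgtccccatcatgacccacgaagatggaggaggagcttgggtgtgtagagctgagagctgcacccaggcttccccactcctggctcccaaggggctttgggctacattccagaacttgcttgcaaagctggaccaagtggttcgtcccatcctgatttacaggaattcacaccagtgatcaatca
In the SERPINB7 window the capitals are a match to the AP-1 motif TGANTCA, which 5.48% of 20656 promoter windows of the same length held on either strand. In the SERPING1 window a CCAAT box, held by 32.0% of windows, overlaps a match to the GAS motif TTCNNNGAA, which is known from STAT binding and was held by 6.37% of windows. The palindromic estrogen response element and the interferon-stimulated response element were searched on both strands too, and neither window held their letters.

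SERPINB7, an intracellular serpin known as megsin, lies on the minus strand of chromosome 1 from 157953872 to 157999242 (gene ID 100152588). Its level in LE of the pregnant gilts was 625.5 CPM in PL139, 426 in PL39, 1045 in PL41 and 432 in PL43. In LE of the cyclic gilts it was 0.268 CPM in CL128, 10.7 in CL40, 5.99 in CL42 and 30.7 in CL78. All pregnant libraries lay above all cyclic ones, as for 10.3% of all genes in LE, and the cyclic libraries themselves spread widely, with CL78 highest and CL128 lowest. The means were 632 ± 290 CPM (SD, n = 4) and 11.9 ± 13.2 CPM (SD, n = 4), from 12438 and 206 counts. The log2 fold change was 5.69 (SE 0.94), with an adjusted p of 0.00698 in the edgeR quasi-likelihood test.

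The direction held with each library left out in turn, with log2 fold changes from 5.29 to 6.80. The adjusted p exceeded 1% without 6 of the 8 libraries: it was 0.0303 without CL40, 0.0265 without CL42, 0.0186 without PL139, 0.0186 without PL39, 0.0137 without PL41 and 0.0194 without PL43. Per kilobase of exon, SERPINB7 stood at 267 CPM in LE of pregnant gilts, above SERPING1 at 102 and SERPINH1 at 54.8, while in LE of cyclic gilts it stood at 5.04 CPM per kilobase, below those genes at 29.7 and 73.9.

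In S of pregnant gilts SERPINB7 was at 71.3 CPM in PS139, 1.14 in PS39, 76.6 in PS41 and 11.2 in PS43. In S of cyclic gilts it was at 0.387 CPM in CS128, 0 in CS40 and CS42 and 1.37 in CS78. The groups overlapped, since PS39 lay under CS78. The means were 40.1 ± 39.4 CPM in pregnant and 0.439 ± 0.646 CPM in cyclic S (SD, n = 4 each), from 575 and 10 counts. The log2 fold change was 6.13 (SE 1.28) with an adjusted p of 0.111 in the quasi-likelihood test, while the robust GLM of edgeR gave 6.68 with an adjusted p of 3.01e-07 and DESeq2 gave 6.45 with an adjusted p of 0.00293, both called, beside 3.16% and 2.52% of all genes in S. The quasi-likelihood test called it without PS39, at a log2 fold change of 6.52 and an unadjusted p of 5.59e-05. The study, with the robust GLM, reported SERPINB7 as higher in pregnant gilts in S, LE and complete endometrium, and qPCR of complete endometrium was higher too. A fitted fold of a gene with libraries at 0 depends on the prior count. SERPINB7 was in the filtered table of S only through the pregnant libraries, since no cyclic library held more than 8 counts while each gene of that table had at least 15 counts in 2 libraries of a group.

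The level in S was set beside the epithelium markers, each as a share of LE of the same gilt. SERPINB7 in S reached 11.4% of its LE level in PS139, 7.34% in PS41, 2.60% in PS43 and 0.267% in PS39. The summed epithelium markers in S reached 11.9%, 17.4%, 4.03% and 1.45% of their LE level in the same gilts. The 2 gilts with the most SERPINB7 in S were thus the 2 with the most epithelium markers there, and in each of the 4 gilts the share of SERPINB7 was no larger than that of the markers. These markers do not tell LE from GE: in GE they summed to 1363 to 1726 CPM, while SERPINB7 lay at or below 1.06 CPM. The part of epithelial RNA in the level of S was not tested.

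**Figure D1:**
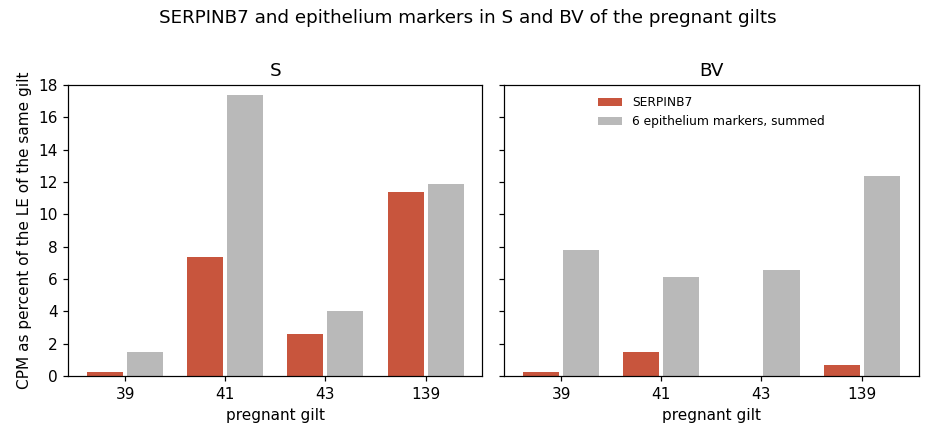
SERPINB7 and the sum of 6 epithelium markers in S and BV of the 4 pregnant gilts, as percent of the CPM in LE of the same gilt (bars, linear axis from 0). In S the bars of SERPINB7 go from 0.267% to 11.4% and those of the markers from 1.45% to 17.4%, and in BV SERPINB7 stays at or below 1.47% beside markers at 6.10% to 12.3%.

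In BV SERPINB7 was too low for the filtered table. Pregnant libraries held 4.23, 1.14, 15.3 and 0 CPM in PB139, PB39, PB41 and PB43, and cyclic libraries 1.68, 0.899, 0.284 and 2.12 CPM in CB128, CB40, CB42 and CB78. The groups overlapped, with PB41 the highest and PB43 the lowest (exact two-sided permutation test of CPM, p = 0.371, adjusted p = 0.743 over 10 such tests). In GE it lay between 0.202 and 1.06 CPM in cyclic and between 0.299 and 0.590 CPM in pregnant gilts, with 8 and 6 counts in all.

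SERPING1 encodes C1 inhibitor, which traps C1r and C1s of the complement system as well as kallikrein and activated factor XII, and lies on the minus strand of chromosome 2 from 13324160 to 13338826 (gene ID 100144304). In LE it was at 41.5, 48.9, 91.6 and 42.8 CPM in CL128, CL40, CL42 and CL78. PL139, PL39, PL41 and PL43 had 196, 207, 234 and 137 CPM in LE. No pregnant library overlapped with the cyclic ones, as for 10.3% of all genes in LE with higher pregnant values. Among the cyclic libraries CL42 stood above the rest. The mean rose from 56.2 ± 23.8 to 194 ± 41.1 CPM (SD, n = 4 each), a log2 fold change of 1.80 (SE 0.29) with an adjusted p of 0.00657 in the quasi-likelihood test.

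In GE SERPING1 was at 20.3, 50.5, 42.2 and 30.9 CPM in CG128, CG40, CG42 and CG78, and at 160, 119 and 147 CPM in PG139, PG39 and PG43. All pregnant values again lay above all cyclic values, as for 11.6% of all genes in GE. The log2 fold change was 1.97 (SE 0.30, n = 4 and 3), with an unadjusted p of 0.000176 and an adjusted p of 0.0394 in the quasi-likelihood test, so the call in GE rests on the raw p limit. At a false discovery rate of 1% within GE, 0 of the 11905 genes were called. The robust GLM and DESeq2, which called SERPINB7 in LE as well, called SERPING1 in LE, beside 11.8% and 11.2% of all genes, and in GE, beside 6.66% and 6.64%.

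These calls were at the margin of the design. Without 1 library the log2 fold change in LE ran from 1.67 to 2.13, and the adjusted p exceeded 1% without CL128 (0.0118), CL40 (0.0258) or CL78 (0.0123) and without PL139 (0.0194), PL39 (0.0222), PL41 (0.0145) or PL43 (0.0124). In GE it ran from 1.77 to 2.17, and the unadjusted p exceeded the limit without CG42 (0.000619) or CG78 (0.000949) and without PG139 (0.000875), PG39 (0.000488) or PG43 (0.000912).

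SERPING1 was several times higher in BV and S than in the epithelia. In S CS128, CS40, CS42 and CS78 had 176, 464, 534 and 289 CPM and PS139, PS39, PS41 and PS43 had 664, 1075, 490 and 799 CPM. The groups overlapped through PS41, which lay under CS42. The log2 fold change was 1.05 (SE 0.36, adjusted p = 0.233 in edgeR). In BV the ranges of 413 to 668 CPM in cyclic and 414 to 987 CPM in pregnant gilts overlapped, at a log2 fold change of 0.42 (SE 0.26, adjusted p = 0.316 in edgeR).

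Because S and BV hold so much SERPING1, its level in the epithelia was set beside 6 fibroblast markers, each as a share of S of the same gilt. In GE SERPING1 was at 7.91% to 11.5% of its S level in cyclic and 11% to 24.1% in pregnant gilts, and the summed markers at 4.86% to 10.1% and 6.95% to 8.87%. In LE it was at 10.5% to 23.5% in cyclic and 17.1% to 47.8% in pregnant gilts, with the markers at 11.2% to 19.2% and 16.0% to 25.1%. The markers themselves summed to 2877 to 7533 CPM in GE of cyclic gilts and 3619 to 6561 CPM in GE of pregnant gilts, which overlapped, and none of the 6 was called in LE or GE. SERPING1 and 5 endothelium markers were likewise taken as a share of BV. In GE SERPING1 was at 4.92% to 9.39% of its BV level in cyclic and 14.7% to 38.6% in pregnant gilts, and the summed endothelium markers at 0.698% to 2.17% and 0.661% to 10.3%. In LE SERPING1 was at 8.39% to 13.7% and 13.9% to 47.3%, with the endothelium markers at 4.15% to 28.6% in cyclic and 24.1% to 35.5% in pregnant gilts. These markers summed to 15.1 to 42.2 CPM in cyclic and 18.1, 55.9 and 168 CPM in pregnant GE, with PG139 highest, and to 119 to 692 CPM in cyclic and 394 to 971 CPM in pregnant LE. Their median log2 fold changes were 1.07 in GE and 0.80 in LE, and none of the 5 was called in either. The 6 leukocyte markers summed to 16.3 to 31.8 CPM in GE of cyclic gilts and 40.3 to 59.8 CPM in GE of pregnant gilts, without overlap, with CD3E at 0 in CG42 and CD53 at 0 in CG78. In LE they summed to 51.2 to 101 CPM in cyclic and 94.6 to 179 CPM in pregnant gilts, which overlapped, with no marker at 0. Of the leukocyte markers 3 were tested in GE and 4 in LE, at median log2 fold changes of 1.13 and 0.62, and none was called. The part of these cells in the level of SERPING1 was not tested.

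Of the complement proteases that C1 inhibitor traps, C1S was called higher in pregnant gilts in both epithelia and C1R in GE. In LE C1S was at 48.2, 47.8, 80.7 and 56.0 CPM in CL128, CL40, CL42 and CL78 and at 249, 196, 164 and 125 CPM in PL139, PL39, PL41 and PL43. In GE it was at 24.4, 50.5, 36.4 and 36.2 CPM in the cyclic gilts and at 246, 178 and 200 CPM in PG139, PG39 and PG43. The groups did not overlap in either epithelium, as for 10.3% of all genes in LE and 11.6% in GE with higher pregnant values. C1S was called in both, with log2 fold changes of 1.67 (SE 0.27, adjusted p = 0.00631 in edgeR) in LE and 2.48 (SE 0.25, adjusted p = 0.0276 in edgeR) in GE. The call in LE did not stand when CL128, CL40, CL42, CL78, PL139, PL39 or PL41 was left out, with adjusted p from 0.0109 to 0.0239.

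C1R, the other C1 protease, was called in GE only, at a log2 fold change of 1.76 (SE 0.23, adjusted p = 0.0296 in edgeR), and stood at 1.54 (SE 0.32, adjusted p = 0.0176) in LE without a call. The call in GE rests on the raw p limit, since the adjusted p of C1R was larger there than in LE. Whether its effect differed between the epithelia was not tested. In GE it was at 15.6, 29.5, 22.2 and 17.8 CPM in CG128, CG40, CG42 and CG78 and at 65.3, 73.6 and 78.9 CPM in PG139, PG39 and PG43, without overlap. In LE the groups did not overlap either, at 20.9 to 47.1 CPM in cyclic and 56.0 to 123 CPM in pregnant gilts. Such a separation with higher pregnant values was seen for 10.3% of all genes in LE and 11.6% in GE. The study, with the robust GLM, reported C1R as upregulated in LE, and C1S and SERPING1 too. The call in GE did not stand when CG42, CG78, PG39 or PG43 was left out, with unadjusted p from 0.000351 to 0.000445.

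**Figure D2:**
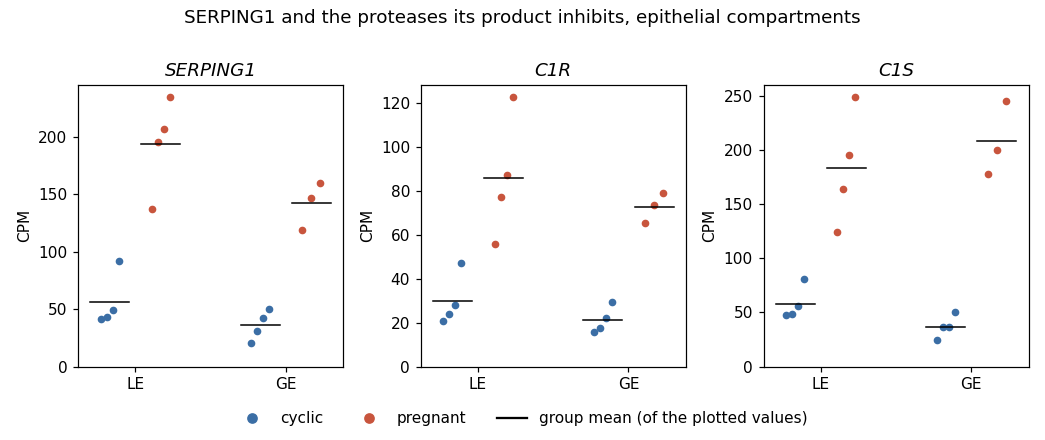
CPM of SERPING1, C1R and C1S (linear axes from 0) in LE and GE, 1 point for each library of cyclic (blue) and pregnant (red) gilts, with the group mean as a line. In each panel the pregnant libraries sit above the cyclic ones, for SERPING1 in LE at 137 to 234 CPM against 41.5 to 91.6 CPM.

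The plasminogen activators showed no difference that passed the test. PLAU (gene ID 396985, chr14:76629313-76635173, plus strand) was at 49.5, 56.1, 20.4 and 177 CPM in S of CS128, CS40, CS42 and CS78 and at 35.8, 22.0, 21.9 and 22.5 CPM in S of PS139, PS39, PS41 and PS43. The groups overlapped, and CS78 lay far above all others. The log2 fold change in S was -1.56 (SE 0.55, adjusted p = 0.254 in edgeR), and it was -0.71 without CS78. In LE PLAU ran from 2.73 to 28.2 CPM in cyclic and from 3.60 to 24.3 CPM in pregnant gilts, and in BV from 16.6 to 27.3 and from 15.6 to 22.6 CPM, with log2 fold changes of -0.26 (SE 0.67) and -0.17 (SE 0.20). In GE it was below 10 CPM in every library and not in the filtered table.

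PLAT (gene ID 397121, chr17:11195599-11223821, minus strand) was highest in BV, at 54.8 to 99.4 CPM in cyclic and 48.2 to 108 CPM in pregnant gilts. In S it ran from 31.7 to 74.0 CPM in cyclic and from 41 to 87.5 CPM in pregnant gilts, and in LE from 5.69 to 32.1 and from 7.71 to 30.4 CPM. The groups overlapped in each of these compartments, and the log2 fold changes were 0.29 (SE 0.29) in BV, 0.41 (SE 0.34) in S and 0.17 (SE 0.53) in LE, with adjusted p from 0.545 to 0.871 in edgeR. In GE PLAT was near the limit of detection, at 0.212 to 1.84 CPM in cyclic and 1.49 to 2.62 CPM in pregnant gilts (exact two-sided permutation test, p = 0.114).

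PLAUR, the urokinase receptor (gene ID 100521017, chr6:50489773-50505453, minus strand), was in the filtered table of S only. In LE it was at 2.14, 2.40, 3.14 and 1.82 CPM in CL128, CL40, CL42 and CL78 and at 4.88, 3.50, 3.57 and 3.52 CPM in PL139, PL39, PL41 and PL43. All pregnant libraries lay above the cyclic ones, as they did in GE, where cyclic gilts had 0 to 1.27 CPM and pregnant gilts 1.31 to 2.09 CPM. Of the genes in the filtered tables, 10.3% in LE and 11.6% in GE separated in this direction, but PLAUR was in neither of these tables. Exact two-sided permutation tests gave p = 0.0286 in LE and p = 0.0571 in GE, each the smallest that these group sizes allow, and both had an adjusted p of 0.286 over the 10 members and compartments tested this way. These levels rest on 38 and 66 counts in LE and on 10 and 19 counts in GE. In S PLAUR ran from 4.25 to 11.8 CPM in cyclic and from 4.91 to 14.0 CPM in pregnant gilts (log2 fold change 0.13, SE 0.40).

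SERPINE2, or protease nexin-1, inhibits thrombin, urokinase and plasmin (gene ID 397542, chr15:125748383-125777788, minus strand). It ran from 5.38 to 13.2 CPM in cyclic and from 6.13 to 19.3 CPM in pregnant BV, and from 4.37 to 16.4 and from 3.04 to 20.8 CPM in S. The groups overlapped in both, at log2 fold changes of 0.25 (SE 0.44) and -0.45 (SE 0.63). In S PS139 was at 20.8 CPM and the other 3 at or below 4.91 CPM, and the log2 fold change was -1.53 without PS139 (adjusted p = 0.273 in edgeR). In LE CL78 was at 21.4 CPM while all other LE libraries were at 1.43 to 5.43 CPM.

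SERPINB2, the plasminogen activator inhibitor PAI-2, was barely detected (gene ID 100519286, chr1:157871919-157886525, minus strand). Its 31 libraries held 23 counts together, of which 7 were in cyclic and 12 in pregnant LE. The 12 counts of pregnant LE included 9 of PL139. In GE it had 0 counts in each library, which allows up to 0.178 CPM over the cyclic and 0.254 CPM over the pregnant libraries (3 counts over the summed library totals of the group without TMM scaling, for counting error only). SERPINB7 is its neighbour on the chromosome, 67346 bases away with 1 gene between them, and the large difference in LE of SERPINB7 had no counterpart that could be detected in SERPINB2 at this depth.

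The other 2 members are serpins that do not inhibit proteases. SERPINH1, or HSP47, is the collagen chaperone of the endoplasmic reticulum (gene ID 396773, chr9:9782939-9794485, plus strand). In S it was at 764, 684, 631 and 504 CPM in CS128, CS40, CS42 and CS78 and at 264, 448, 373 and 435 CPM in PS139, PS39, PS41 and PS43. All pregnant libraries lay below all cyclic ones, as did those of 5.19% of all genes in S. The log2 fold change was -0.76 (SE 0.21, adjusted p = 0.164 in edgeR). DESeq2 called it at -0.75 with an unadjusted p of 0.000539 (adjusted p = 0.0238), beside 2.52% of all genes in S. The robust GLM, which called 3.16% there, did not call it (-0.76, unadjusted p = 0.00228, adjusted p = 0.0566).

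In BV SERPINH1 was at 868, 644, 549 and 263 CPM in CB128, CB40, CB42 and CB78 and at 208, 285, 414 and 306 CPM in PB139, PB39, PB41 and PB43. The groups overlapped through CB78. The log2 fold change was -0.93 (SE 0.33, adjusted p = 0.105 in edgeR), and the robust GLM of edgeR called it at -0.96 with an adjusted p of 0.00828, beside 11.0% of all genes in BV, while DESeq2, which called 8.5% there, did not (-0.92, adjusted p = 0.0476). With -0.41 (SE 0.41) in LE and -0.65 (SE 0.34) in GE, its log2 fold change was below 0 in all 4 compartments, as in 20.5% of the 9727 genes in all 4 filtered tables. The summed smooth muscle markers were lower in pregnant than in cyclic S without overlap and lower on average in BV, and their part in these values was not tested.

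The collagens that HSP47 folds did not pass the test. Among COL1A1, COL1A2, COL3A1, COL4A1, COL4A2, COL5A1 and COL5A2 none was called in any compartment. COL3A1, with the most counts of them, had log2 fold changes of 0.28 (SE 0.40) in LE, -0.30 (SE 0.40) in GE, -0.22 (SE 0.45) in BV and -0.14 (SE 0.45) in S.

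SERPINF1, or pigment epithelium-derived factor, is a secreted inhibitor of vessel growth (gene ID 780402, chr12:47949004-47959471, plus strand). It was at 156 to 302 CPM in cyclic and 88.0 to 229 CPM in pregnant BV and at 72.6 to 394 and 69.2 to 244 CPM in S, with overlap in both. The log2 fold changes were -0.69 (SE 0.30, adjusted p = 0.159 in edgeR) in BV and -0.45 (SE 0.52) in S. In LE and GE it stood at 0.04 (SE 0.31) and 0.09 (SE 0.33), with levels from 9.78 to 30.0 CPM in all epithelial libraries.

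**Figure D3:**
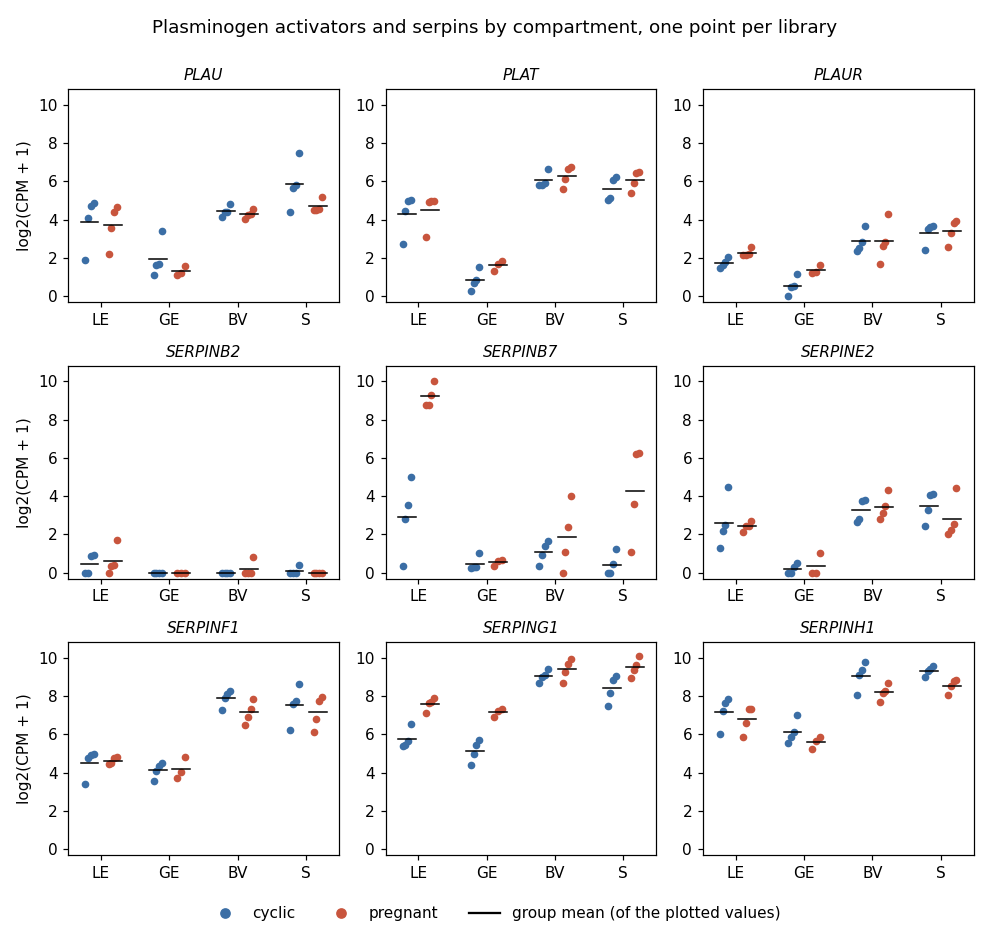
Levels of the 9 members on the log2(CPM + 1) scale in LE, GE, BV and S, 1 point for each library of cyclic (blue) and pregnant (red) gilts, with the mean of the plotted values as a line. SERPINB7 stands apart in pregnant LE, SERPING1 is higher in both pregnant epithelia, and SERPINB2 stays at or near 0.

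**Figure D4:**
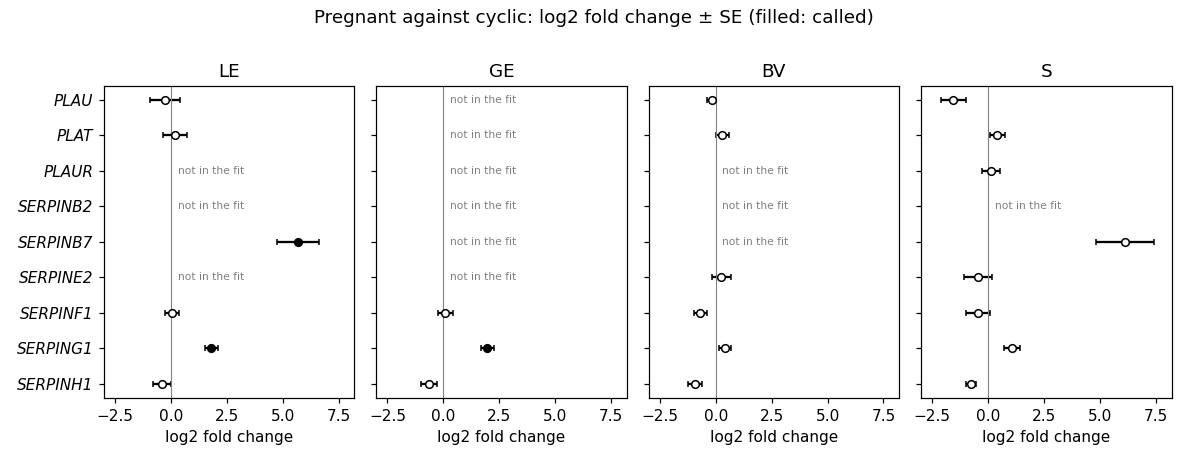
Log2 fold change of pregnant against cyclic gilts with its SE (bars) for each member in the filtered table of a compartment, filled where the quasi-likelihood test called it. Filled points are SERPINB7 at 5.69 and SERPING1 at 1.80 in LE and SERPING1 at 1.97 in GE.

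Unequal effects of pregnancy among the compartments were tested as an interaction in a joint quasi-likelihood fit of all 31 libraries with the gilt as block. None of the 8 members in that fit was called at a false discovery rate of 1%, where 1.94% of 13887 genes were. The smallest adjusted p values were 0.0246 for SERPING1 and 0.0465 for SERPINB7, which passed 5%, where 6.23% of all genes did. For SERPING1 the estimated effect was larger in LE than in BV by 1.47 on the log2 scale (SE 0.36, adjusted p = 0.0174 in edgeR) and larger in GE than in BV by 1.63 (SE 0.38, adjusted p = 0.0451), while LE and GE differed by -0.16 (SE 0.39). With 1 gilt left out, the adjusted p in edgeR rose to as much as 0.0679 for LE and BV and 0.142 for GE and BV. SERPINB7 had 14 counts in cyclic and 53 in pregnant BV, of which 40 were in PB41, and 8 and 6 counts in GE. Its estimated effect was larger in LE than in BV by 4.63 (SE 1.34, adjusted p = 0.0382, up to 0.130 with 1 gilt left out) and larger in LE than in GE by 5.60 (SE 1.89, adjusted p = 0.112). Between LE and S the difference was 0.27 (SE 1.91), an error too wide to tell equal from unequal effects. At 1% none of the 8 members was called in any pair of compartments, beside 1.02% of all genes for LE and GE, 2.3% for LE and BV, 0.85% for LE and S, 0.0792% for GE and BV, 0.0576% for GE and S and 0 genes for BV and S.

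The compartments differed in the level of each member that could be tested. All 8 members in the joint fit differed between compartments in cyclic gilts, where 65.5% of all genes did, and all 8 in pregnant gilts, where 55.1% did. With 1 gilt left out this went down to 7 and 6: SERPINB7 was not called in cyclic gilts without the gilt of CL78 (adjusted p = 0.0107 in edgeR), and PLAU and PLAUR were not called in pregnant gilts without the gilt of PL139, PL39 or PL43 (adjusted p from 0.0108 to 0.0570). In cyclic gilts the order of mean CPM was S, BV, LE, GE for PLAU, PLAUR, SERPINE2 and SERPINH1, and BV, S, LE, GE for PLAT, SERPINF1 and SERPING1. SERPINB7 alone had its highest mean in LE. GE had the lowest mean for all 8. For SERPINB7 this was a near tie, at 0.427 CPM in GE and 0.439 CPM in S, from 8 and 10 counts. The log2 difference of S and GE was 0.17 (SE 1.32, adjusted p = 0.919 in edgeR). In pregnant gilts GE was again lowest for all 8, SERPINB7 had the order LE, S, BV, GE, PLAT and SERPINE2 the order BV, S, LE, GE, and the other 5 the order S, BV, LE, GE.

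Of the 24 pairs of neighbours in these orders, 7 differed at a false discovery rate of 1% in each status. BV and S, which are neighbours in the order of every member, differed for none of the 8 in either status, where 3.28% of all genes did in cyclic and 0.101% in pregnant gilts. The largest of these differences was that of SERPINB7 between S and BV of pregnant gilts, at 2.92 (SE 0.67, adjusted p = 0.0291 in edgeR). In cyclic gilts GE differed from BV for 7 members (50.3% of all genes) and from S for 7 (50.7%), and LE differed from GE for 4 (30.3%), from BV for 5 (38.7%) and from S for 5 (39.5%). In pregnant gilts GE differed from BV for 7 members (38.1% of all genes) and from S for 8 (40.9%), and LE differed from GE for 4 (25.0%), from BV for 5 (30.9%) and from S for 4 (31.1%). The step from the epithelia to the other compartments was large for SERPINF1, at a log2 difference of 3.11 (SE 0.25) between S and LE of cyclic gilts, and for SERPING1, at 2.65 (SE 0.27), both called. For SERPING1 it was 1.82 (SE 0.26) between BV and LE of pregnant gilts, called too. For PLAT, PLAU, PLAUR and SERPINE2 the largest gap between neighbours was instead that of LE and GE. The log2 differences in cyclic gilts were 4.65 (SE 0.65) for PLAT and 5.11 (SE 0.89) for SERPINE2, both called. They were 2.35 (SE 0.74, adjusted p = 0.0138 in edgeR) for PLAU and 2.09 (SE 0.70, adjusted p = 0.0199) for PLAUR, neither called. SERPINH1 differed in both steps, at 1.87 (SE 0.22) between BV and LE and 1.08 (SE 0.21) between LE and GE. Without the gilt as block, the difference of PLAU between LE and GE was called (2.25, adjusted p = 0.00732 in edgeR) and that of SERPINH1 was not (1.11, adjusted p = 0.0209). With 1 gilt left out, the difference of PLAU was called without the gilt of CL128 (3.28, adjusted p = 0.00733) or CL78 (2.47, adjusted p = 0.00366), and that of SERPINH1 was not called without the gilt of CL42 (0.82, adjusted p = 0.0129). The number of neighbours that differed then ran from 5 to 8 in cyclic and from 4 to 9 in pregnant gilts, and the number of members that differed between LE and GE from 3 to 5 and from 1 to 5.

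Per kilobase of exon, mean levels in S of cyclic gilts were 298 CPM for SERPINH1, 193 for SERPING1, 136 for SERPINF1, 31.9 for PLAU, 21.2 for PLAT, 6.58 for PLAUR, 5.87 for SERPINE2, 0.186 for SERPINB7 and 0.0437 for SERPINB2. The chaperone and the C1 inhibitor were thus the most abundant members there, and both activators exceeded the receptor. Without CS78 PLAU stood at 17.7 CPM per kilobase, below PLAT at 19.2, so the order of the activators rests on that library. Without CS42 PLAUR at 6.32 was below SERPINE2 at 7.07.

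Other genes of the system were counted by lists. Of 20 other serpins, 11 were in no filtered table and 2 of these had no count. In LE 1 of 7 tested was called, and none of 5 in GE, 3 in BV or 3 in S. Of all genes 3.32%, 0.748%, 1.86% and 0.293% were called in the same order. The median log2 fold changes of those tested were 1.52, -0.51, 0.07 and 0.13 in the order LE, GE, BV, S, beside the medians near 0 of all genes. The called gene was SERPINB11, another clade B serpin, at 0, 1.31, 0.571 and 2.73 CPM in LE of CL128, CL40, CL42 and CL78 and at 25.2, 20.7, 15.4 and 11.8 CPM in PL139, PL39, PL41 and PL43. The groups did not overlap, as for 10.3% of all genes in LE with higher pregnant values. The log2 fold change of SERPINB11 was 3.90 (SE 0.66, adjusted p = 0.00754 in edgeR). The call did not stand when CL40, CL42 or any pregnant library was left out, with adjusted p from 0.0145 to 0.0290. With at most 12 counts in a cyclic library, it was in the filtered table through the pregnant libraries.

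Among the other serpins that were not called, SERPINA11 had a log2 fold change of 3.66 (SE 0.95, adjusted p = 0.0398) in LE, and SERPINB1, an inhibitor of neutrophil elastase, lay between -0.51 and 0.14 in the 4 compartments.

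Of 11 genes for the binding and clearance of plasminogen and its activators, 9 were tested in each compartment and none was called, at medians of -0.10, 0.35, -0.50 and -0.01 in the same order. LRP1, the endocytic receptor that clears activators bound to serpins, had a log2 fold change of 0.83 (SE 0.16, adjusted p = 0.0493 in edgeR) in GE. Its groups did not overlap there, as for 11.6% of all genes with higher pregnant values. ANXA2, a surface receptor for plasminogen and PLAT, had log2 fold changes of -1.39 (SE 0.39) in LE, -1.08 (SE 0.39) in GE, -0.72 (SE 0.16) in BV and -0.79 (SE 0.25) in S, with adjusted p from 0.0321 to 0.211 in edgeR. MRC2, the collagen receptor that associates with PLAUR, lay between 0.06 and 0.86.

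Of 20 coagulation factors, surface proteases and their inhibitors, none of 12 was called in LE, none of 13 in GE, 2 of 7 in BV and none of 9 in S. Of all genes 3.32%, 0.748%, 1.86% and 0.293% were called in the same order. The medians were 0.42, 0.53, 0.55 and 0.95. In BV TMPRSS2, a surface serine protease of epithelia, was at 0.672, 5.10, 0.568 and 5.10 CPM in CB128, CB40, CB42 and CB78 and at 89.2, 63.7, 32.9 and 76.8 CPM in PB139, PB39, PB41 and PB43. Its log2 fold change was 4.56 (SE 0.58, adjusted p = 0.0130 in edgeR), and it too was in the filtered table through the pregnant libraries. SPINT2, an inhibitor of such proteases, had a log2 fold change of 1.66 (SE 0.28, adjusted p = 0.0163), with means of 27.3 and 85.8 CPM. Neither gene's groups overlapped, as for 8.68% of all genes in BV with higher pregnant values, and the call of SPINT2 did not stand when CB128, CB42 or any pregnant library was left out, with unadjusted p from 0.000351 to 0.000843. Both genes were far higher in LE and GE, at means of 377 to 770 CPM, and the summed epithelium markers were also higher in pregnant BV without overlap. Of these CDH1 was called, with a log2 fold change of 3.77 (SE 0.44). The part of epithelial RNA in these values was not tested. A2M, a broad protease inhibitor, had the most counts of the list, at means of 3005 and 3718 CPM in BV, and was not called in any compartment.

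Among 13 targets and partners of the members, 11 were tested in each compartment. In LE 2 were called (C1S and PNPLA2), in GE 2 (C1S and C1R), in BV 1 (PNPLA2) and in S none. Of all genes 3.32%, 0.748%, 1.86% and 0.293% were called in the same order. The medians were 0.41, 0.20, 0.12 and 0.17. PNPLA2, the lipase ATGL to which PEDF binds, was at 19.0, 16.2, 20.0 and 24.6 CPM in LE of CL128, CL40, CL42 and CL78 and at 68.9, 60.1, 39.8 and 61.1 CPM in PL139, PL39, PL41 and PL43. The groups did not overlap there or in BV, as for 10.3% and 8.68% of all genes with higher pregnant values. The log2 fold changes were 1.54 (SE 0.23, adjusted p = 0.00473 in edgeR) in LE and 1.03 (SE 0.14, adjusted p = 0.0130) in BV. The call in LE did not stand when CL40, CL42, PL139, PL39 or PL43 was left out, with adjusted p from 0.0150 to 0.0188.

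For each member the 2 genes with the most similar pattern were found by Pearson's r of log2(CPM + 1) over the 31 libraries, which share gilts and compartments, as a description. SERPING1 was nearest to C1S (r = 0.975) and AGTR1 (r = 0.968), SERPINH1 to RCN3 (r = 0.983) and COL5A2 (r = 0.980), and SERPINF1 to FBN1 (r = 0.976) and FBXO24 (r = 0.972). SERPINB7 was nearest to LOC100156854 (r = 0.967) and STC1 (r = 0.949). PLAT was nearest to ADGRL2 (r = 0.974) and RBMS3 (r = 0.968), PLAUR to FAM135A (r = 0.903) and SLC36A4 (r = 0.892), and SERPINE2 to AHR (r = 0.866) and STARD9 (r = 0.865). Of the pair found for PLAU, ADAMTS9 had an r of 0.931.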

How the data were processed

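RNA-seq of laser-captured endometrium was analysed as gene counts. The authors amplified picogram amounts of RNA with the Ovation SoLo system, and sequenced single reads. Trim Galore was used for trimming, Hisat2 for mapping to the pig genome Sscrofa11.1, nudup for removing PCR duplicates by molecular tags, and QuasR for counting per NCBI gene (versions not given in the sources used here). The deposited values are whole counts, 1 column per library. Each compartment has a table of all 30185 genes and one that the authors filtered (LE 12002, GE 11905, BV 11096 and S 11935 genes). The filtered counts were checked to equal the full ones. The library PG41 was not analysed here. Library totals were 2415216 to 7081556 counts. Intervals and floors cover counting error only.

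Within a compartment, the pregnant libraries were set against the cyclic ones by the quasi-likelihood test of edgeR 4.0.16 (R 4.3.3) with TMM and Benjamini-Hochberg adjustment over all genes of the filtered table. SEs were derived from the log2 fold change and F. Levels and differences between compartments came from a joint fit of 13887 genes with the gilt as block. The block comes from the design, since each gilt gave all compartments, while pregnant and cyclic gilts are different animals and were not paired. Members outside a filtered table were tested by exact permutation of CPM over gilts. The scripts were tested on simulated counts.

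The test, the rule for calls in GE, BV and S and the robust GLM with DESeq2 1.42.0 as alternatives follow the study's methods, with the quasi-likelihood test in place of the robust GLM. Other alternatives were RLE, no filter, filterByExpr, no ribosomal RNA genes, other false discovery rates, no block, and each library left out. Named were all members, list genes called in a compartment, the 3 most abundant genes of each list, and the 2 genes most like each member. Some genes that this rule names are not reported here. KRT8, CDH1 and other markers are named only to give marker levels. The members and lists were chosen with earlier results of these data known. Promoter windows were read from the RefSeq genome of the same build, Sscrofa11.1.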

Additional observations from a re-analysis of the deposited data

Results flagged for a closer look

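In 57 groups of 4 libraries, the highest or lowest library of a member was tested for lying far from the other 3, by the gap to its neighbour over the range of the group (Dixon's ratio at 95%). Of these, 11 stood apart. An expectation of 2.85 by chance would need independent groups of normally distributed values. These groups share libraries and some hold few counts, so no excess over chance can be read from the number.

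The pregnant gilt of PL139 and PS139 held 5 of the 11. In PS139 PLAU was at 35.8 CPM, above the next at 22.5 CPM, and SERPINE2 at 20.8 CPM, above the next at 4.91 CPM. In PL139 PLAT was at 7.71 CPM, under the next at 29.9 CPM, PLAUR at 4.88 CPM, above 3.57 CPM, and SERPINB2 at 2.31 CPM, above 0.320 CPM and from 9 counts.

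The cyclic gilt of CB78, CG78 and CL78 held 3, with PLAT in BV at 99.4 CPM above 60.2 CPM, SERPINB7 in GE at 1.06 CPM above 0.231 CPM, and SERPINE2 in LE at 21.4 CPM above 4.59 CPM. The cyclic gilt of CG128 and CS128 held 2, with PLAU in GE at 9.51 CPM above 2.22 CPM and PLAUR in S at 4.25 CPM under 10.6 CPM. In CL42 SERPING1 was at 91.6 CPM above 48.9 CPM, while this library still lay under all pregnant LE libraries. What set these libraries apart was not tested.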

How the results depend on the processing

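The calls of SERPINB7 and SERPING1 in LE stood under DESeq2, the robust GLM, RLE, no filter, filterByExpr, without the ribosomal RNA genes and at a false discovery rate of 5%. With 1 library left out, 0 to 1 members were called in LE, 0 to 1 in GE and 0 to 1 in S, and all genes called in LE went from 398 to between 101 and 439. A false discovery rate of 1% within GE left 0 members and 0 of all 11905 genes there. The robust GLM called 1 member in BV (SERPINH1) and 1 in S (SERPINB7), DESeq2 called 2 in S (SERPINB7 and SERPINH1), and no filter gave 1 in S (SERPINB7); the robust GLM called 11.0% of all genes in BV and 3.16% in S, and DESeq2 2.52% in S. The effect of pregnancy differed between compartments for 2 members at a false discovery rate of 5%. With only genes detectable in all compartments, 3 members could be tested for levels, and 3 differed in each status. Without the gilt as block (no pairing of compartments), 0 members differed in the effect of pregnancy and 8 and 8 in level, and LE minus S of the effect on SERPINB7 turned to -0.40. The robust GLM gave -0.039 for SERPINF1 in LE. Leaving out 1 library turned the sign of small effects that were not called: PLAT in LE ran from -0.15 to 0.45, PLAU in LE from -0.63 to 0.049, PLAUR in S from -0.12 to 0.36, SERPINE2 in BV from -0.19 to 0.46 and SERPINF1 from -0.21 to 0.16 in LE, from -0.30 to 0.33 in GE and from -0.74 to 0.017 in S. Leaving out 1 gilt did so for LE minus GE of the effect on SERPING1, from -0.39 to 0.022, and LE minus S of the effect on SERPINB7, from -0.36 to 0.99. The causes were not tested. Depth limits SERPINB2 throughout and PLAU, PLAT, PLAUR and SERPINE2 in GE.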
